A study of Homo sapiens with 12 samples.

Results

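The comparison described here is that of ANT1 knockout with wild type cells in control medium, without bleomycin. It set 3 libraries of ANT1 knockout cells against 3 of wild type cells, 6 of the 12 libraries of the series, chosen by their labels. The main fit took in all 12, called all libraries below, so that both media shared an estimate of spread. All were made from Beas-2b, a human bronchial epithelial line immortalised with a hybrid virus that carries SV40 genes. The knockout cells came from CRISPR clones of SLC25A4, the gene for ANT1. The sources used here do not say how many clones gave these 3 libraries, and the deletion and the clone cannot be told apart. The other 6 libraries, 3 per genotype, had bleomycin at 10 mg/ml for 2 days, as the labels give it, to induce senescence. The replicates are called biological in the design text, with no word on whether they were separate cultures, so p-values measure the spread between these libraries.

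ANT1 is an adenine nucleotide translocase of the inner mitochondrial membrane. It exchanges the ADP of the cytosol for ATP made in the matrix, and translocases of this family also take part in the permeability transition pore. SLC25A5 and SLC25A6 encode the closely related translocases ANT2 and ANT3. Bronchial epithelial cells release chemokines through NF-kB, answer nucleic acids and interferon with a set of interferon-stimulated genes, and arrest through p53 and its target CDKN1A after damage.

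The 6 libraries held between 16.6 and 21.9 megacounts, and all 3 knockout libraries were below the 3 wild type libraries (17.2 ± 0.948 against 20.3 ± 1.73, SD, n = 3, exact two-sided permutation p = 0.1, the smallest that 3 against 3 allow). Knockout replicate 2 stood apart from its group. Mitochondrially encoded transcripts made up 0.364% of its counts, against 3.86% to 4.43% in the other 5 libraries. It held the highest value of all 12 libraries of the series for 4347 of 16702 genes and the lowest for 4008. Of the other control-medium libraries, wild type replicate 1 came next, with 1463 and 1500. With it in the fit the common coefficient of biological variation was 0.150, and without it 0.0825. The counts of called genes and the list medians below are therefore given with all libraries and without knockout replicate 2, as are the fold changes of the genes described at most length. What made this library differ was not tested. The epithelial keratins KRT8 (672 and 706 CPM in wild type and knockout, counts per megacount of the scaled library) and KRT18 (263 and 287 CPM) were present. The 10 leukocyte markers summed to 19.8 to 24.1 CPM in wild type and 30.0 to 41.0 CPM in knockout libraries. Nearly all of this was CD14, a lipopolysaccharide co-receptor (19.5, 23.7 and 20.8 CPM against 31.8, 40.8 and 29.7 CPM, log2 fold change 0.67, adjusted p = 0.304), while CD3E, MS4A1 and NKG7 were at 0 in all 6 libraries and PTPRC, or CD45, had 2 and 0 counts. The 11 airway basal markers summed to 621 to 659 CPM and 807 to 897 CPM, most of it DST, a cytoskeletal linker (400, 449 and 432 CPM against 629, 500 and 639 CPM), which passed without knockout replicate 2 (0.57, adjusted p = 0.00542). The basal marker TP63 had 7 and 4 counts. The part of these markers in the results below was not tested. GRHL2, an epithelial transcription factor, had 0 counts in all 6 libraries, which allows up to 0.137 to 0.181 CPM. COL1A1, on the fibroblast list, was at 913 ± 338 CPM in wild type cells (SD, n = 3).

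Few genes separated the genotypes in control medium. With all libraries, 28 of 16702 tested genes passed an adjusted p of 0.05 (0.168%), 18 higher in knockout cells (0.108%) and 10 lower (0.0599%). Without knockout replicate 2, 175 of 17204 passed (1.02%), 116 higher (0.674%) and 59 lower (0.343%). Both fits called 26 of the 28, and ISG15 (adjusted p = 0.145) and SERPINB2 (adjusted p = 0.0719) were lost without replicate 2. Most differences were small: 6 of the 18 higher and 3 of the 10 lower genes differed at least 2-fold, and 16 and 5 without replicate 2. The median log2 fold change over all genes was 0.02 with all libraries and 0.00 without. All 28 genes had no overlap between the genotypes, which follows in large part from their being called on these same libraries. Among all tested genes 6.83% had every knockout library above and 5.41% every knockout library below the wild type libraries. Most of these calls were also lost when any library other than knockout replicate 2 was left out. Of the 28, 2 remained called without wild type replicate 1, 2 without replicate 2 and 0 without replicate 3. In the last case 1038 genes had an unadjusted p under 0.05. Leaving out knockout replicate 1 kept 4 of the 28 and replicate 3 kept 11. A fit of only the 6 control-medium libraries with edgeR called 0 genes, with 661 at an unadjusted p under 0.05. A replicate block kept 9 of the 28, limma on FPKM values 14, and leaving out 1 bleomycin library 7 to 12. DESeq2 with all libraries called 209 genes, all 28 among them. The 28 kept their direction under each of these settings, which their lack of overlap all but fixed in advance.

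**Figure D1:**
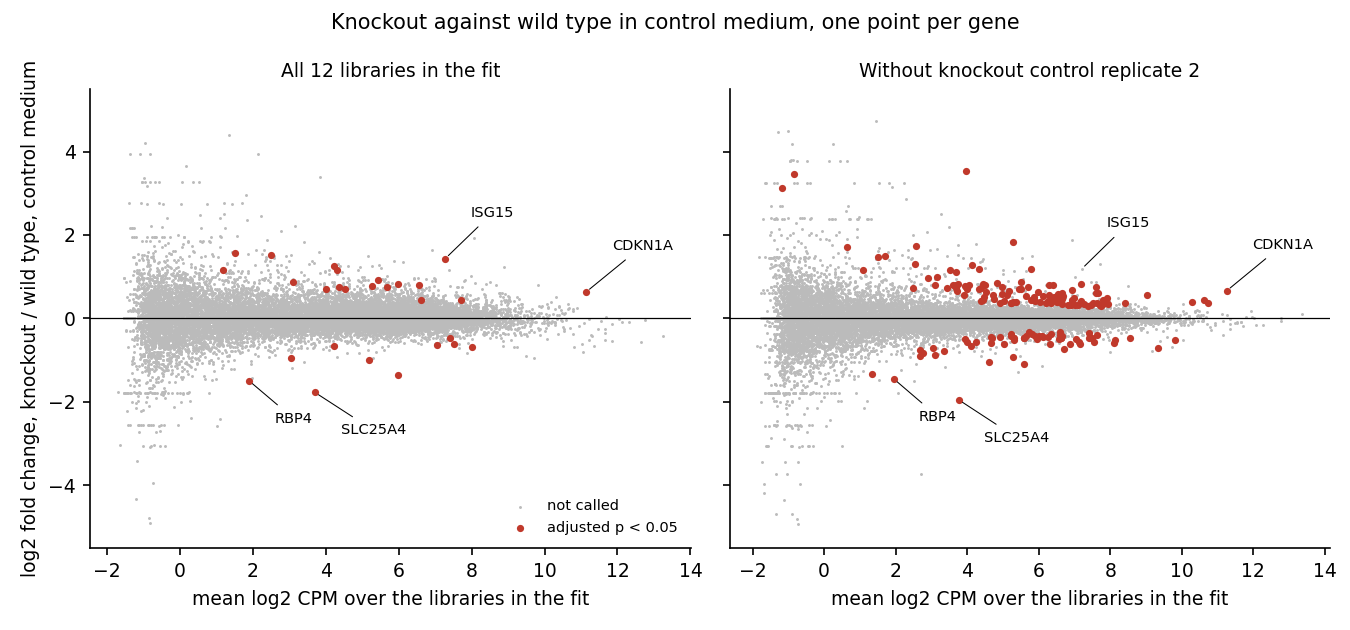
Log2 fold change, knockout over wild type, in control medium (y axis) against mean log2 CPM (x axis), one point per gene, with genes past an adjusted p of 0.05 in red. The left panel has 28 red genes of 16702 with all libraries, and the right panel 175 of 17204 without knockout control replicate 2, on a narrower grey band.

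The targeted gene had the largest decrease among the called genes. SLC25A4 (ENSG00000151729, chromosome 4, 185143241 to 185150382) was at 22.8, 16.6 and 18.3 CPM in wild type replicates 1 to 3 and at 5.08, 6.97 and 4.81 CPM in knockout replicates 1 to 3. Transcript thus remained in each knockout library, below all wild type libraries. The log2 fold change was -1.78 (SE 0.21, adjusted p = 0.0111), and -1.96 without knockout replicate 2 (adjusted p = 0.000335). The call was lost without wild type replicate 1 (adjusted p = 0.0515) or 3 (0.0622). SLC25A5 (-0.09, adjusted p = 0.727) and SLC25A6 (-0.14, adjusted p = 0.631) did not pass, and neither did any of the 16 tested genes within 1 Mb of SLC25A4, in either fit. Reads of near-identical translocase copies may be split between genes.

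Interferon-stimulated genes lay higher in knockout cells, though few passed alone. IFI44, an interferon-induced antiviral protein, was at 10.6, 15.8 and 13.0 CPM in wild type and 34.1, 29.9 and 29.8 CPM in knockout libraries, and rose by 1.25 on the log2 scale (SE 0.19, adjusted p = 0.0238; 1.28 and adjusted p = 0.00539 without knockout replicate 2). ISG15, a ubiquitin-like modifier, was at 61.7, 81.6 and 64.1 CPM in wild type and 178, 247 and 136 CPM in knockout libraries. Its log2 fold change was 1.44 (SE 0.25, adjusted p = 0.0478). Knockout replicate 2 had the highest ISG15 value, and the change without it was 1.18 and did not pass. DDX60L, a helicase-like gene outside the interferon list, rose by 0.77 (SE 0.13, adjusted p = 0.0467), from 30.8 ± 1.8 to 52.5 ± 6.64 CPM (SD, n = 3). Since whole cultures were sequenced, more cells expressing a gene and more RNA per cell cannot be told apart.

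Of the 32 interferon-stimulated genes, all of them tested, 2 passed with all libraries (IFI44 and ISG15), and none passed downward in either fit. Without knockout replicate 2, 3 passed, among them IFI44 and HERC5, the ligase that attaches ISG15 to proteins. Of all tested genes 0.108% passed upward with all libraries and 0.674% without knockout replicate 2. The list's median log2 fold change was 0.91 with all libraries and 1.04 without, against 0.02 and 0.00 over all genes. The fitted change was positive for 32 of 32 members, against 52.8% of all genes, and for 24 members every knockout library was above every wild type library, against 6.83%. IFI6, an interferon-induced membrane protein, was at 111, 193 and 118 CPM in wild type and 398, 895 and 300 CPM in knockout libraries (log2 fold change 1.92, adjusted p = 0.15). MX1, an antiviral GTPase, was at 25.7, 54.6 and 33.6 CPM against 117, 81.6 and 99.5 CPM (1.38, adjusted p = 0.189). RSAD2, the antiviral enzyme viperin, was at 0.305, 1.82 and 0.703 CPM against 5.68, 6.1 and 4.75 CPM, the largest fitted change of the list (2.51, adjusted p = 0.122). None of these 3 overlapped between genotypes. These genes also varied together within the wild type group. The median member was at -0.24, 0.24 and -0.11 in wild type replicates 1 to 3, as the log2 ratio to the wild type mean, and at 1.01, 0.55 and 0.80 in knockout replicates 1 to 3. The lowest knockout library by this measure was replicate 2, and the highest wild type library was replicate 2 as well. In knockout replicate 2, 26 of the 32 members lay above the wild type mean, against all 32 in knockout replicates 1 and 3. IRF1, an interferon-regulated transcription factor, was level at 45.4 to 49.1 CPM over the 6 libraries (0.01).

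**Figure D2:**
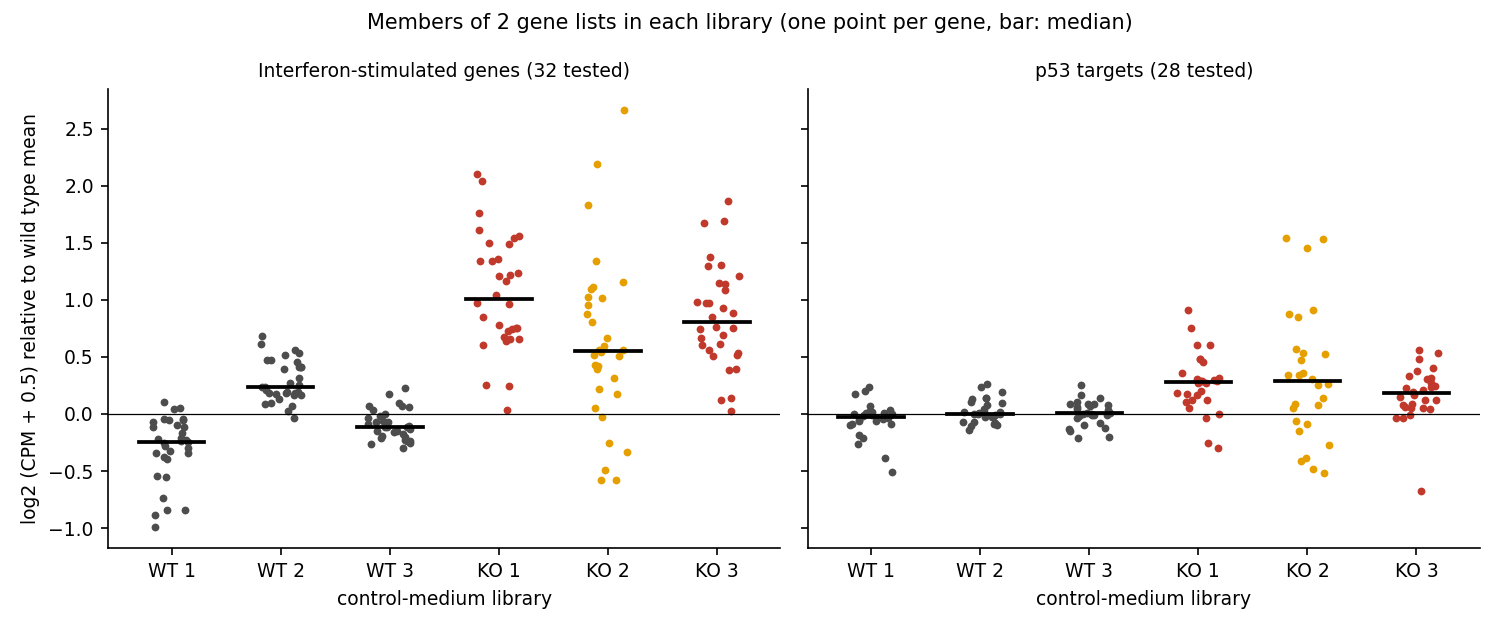
Log2 ratio of CPM plus 0.5 to the wild type control mean plus 0.5 (y axis) in each of the 6 control-medium libraries (x axis), one point per tested gene, for 32 interferon-stimulated genes and 28 p53 targets, with the median as a bar. Interferon-stimulated genes have medians of 1.01, 0.55 and 0.80 in knockout libraries 1 to 3, and p53 targets 0.28, 0.29 and 0.18.

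Of the 18 rising genes 12 had a promoter in the RefSeq table (GRCh38.p14), as had 9 of the 10 falling ones and 24 of the 32 interferon-stimulated genes. The 250 bases before the start site of IFI44, chr1:78649539-78649788 on the plus strand, are shown because it is the interferon-stimulated gene that passed in both fits. They are printed 5′ to 3′ and overlap no exon of the gene in GENCODE.
IFI44: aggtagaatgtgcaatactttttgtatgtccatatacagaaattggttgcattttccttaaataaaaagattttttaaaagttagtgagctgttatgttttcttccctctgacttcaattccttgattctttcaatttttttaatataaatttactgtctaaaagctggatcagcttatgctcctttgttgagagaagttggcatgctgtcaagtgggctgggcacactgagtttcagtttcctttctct

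A few targets of p53 were higher in knockout cells. CDKN1A (ENSG00000124762, chromosome 6, 36676460 to 36687339), which encodes the cell cycle inhibitor p21, was at 85.4, 92.5 and 95.8 CPM in wild type and 154, 136 and 135 CPM in knockout libraries. All knockout values were above all wild type values, with a log2 fold change of 0.64 (SE 0.09, adjusted p = 0.0238; 0.67 and adjusted p = 0.000691 without knockout replicate 2). AEN, a nuclease induced by p53, was at 52.3, 47.2 and 49.6 CPM against 69.4, 69 and 64.8 CPM (0.45, SE 0.08, adjusted p = 0.0467). These 2 of the 28 tested targets passed with all libraries, and 4 passed without knockout replicate 2, which added MDM2, the ligase that degrades p53 (0.40, adjusted p = 0.0314), and BBC3, the apoptosis gene PUMA (0.54, adjusted p = 0.0426). None passed downward. The median of the list was 0.24, and 0.21 without replicate 2, and 13 of the 28 had every knockout library above every wild type library, against 6.83% of all genes. GDF15, a stress cytokine, was at 5.04, 6.67 and 5.62 CPM against 11.3, 10.8 and 8.58 CPM and did not pass (0.82, adjusted p = 0.0826, and 0.0548 without replicate 2). BAX, a pore-forming apoptosis protein, was at 118 to 121 CPM in wild type and at 124, 85.7 and 124 CPM in knockout libraries, the middle value being replicate 2 (-0.10). Of the 7 CDK inhibitors only CDKN1A passed. None of 28 mitosis genes passed with all libraries, and CENPE, a mitotic kinesin, passed upward without replicate 2 (0.52, adjusted p = 0.0242). None of 31 DNA replication genes passed in either fit.

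A few chemokine and NF-kB feedback genes fell. CXCL2 (ENSG00000081041, chromosome 4, 74097035 to 74099293), a neutrophil attractant, was at 14.4, 14.5 and 13.8 CPM in wild type and 8.40, 6.66 and 6.56 CPM in knockout libraries (log2 fold change -0.99, SE 0.14, adjusted p = 0.0156; -0.93 without knockout replicate 2). CXCL1, its close relative, was at 162, 171 and 148 CPM against 111, 86.2 and 103 CPM (-0.68, SE 0.12, adjusted p = 0.0467; -0.58 without). The genotypes did not overlap for either gene. TNFAIP3, which encodes the deubiquitinase A20 that shuts off NF-kB signalling, was at 54.5, 49.5 and 54.9 CPM against 33.1, 34.0 and 35.7 CPM (-0.63, SE 0.08, adjusted p = 0.015; -0.62 without). IRAK3, an inhibitory kinase-like protein of Toll-like receptor signalling, was at 25.8, 26.1 and 28.6 CPM against 19.1, 15 and 17.2 CPM (-0.65, SE 0.11, adjusted p = 0.0467). The knockout values of TNFAIP3 lay between 33.1 and 35.7 CPM, replicate 2 included. Reads of the similar CXCL genes may be split between them.

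The 250 bases before the start site of CXCL1, chr4:73869143-73869392 on the plus strand, are shown because CXCL1 and CXCL2 are close relatives that fell together. At the same distance from the start site, compared without gaps, 117 of the 250 bases (46.8%) were the same before both genes. The share expected of unrelated sequences was not computed. The CXCL1 window overlaps no exon of its gene in GENCODE, whereas 98 bases of the CXCL2 window do, so the latter is not printed.
CXCL1: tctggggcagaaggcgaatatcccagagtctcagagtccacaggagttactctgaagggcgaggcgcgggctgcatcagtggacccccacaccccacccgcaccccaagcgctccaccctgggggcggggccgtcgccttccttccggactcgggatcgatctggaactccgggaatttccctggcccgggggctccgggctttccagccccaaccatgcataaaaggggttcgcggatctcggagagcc

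Of the 32 tested senescence secretory genes, 3 fell with all libraries (CXCL1, CXCL2 and SERPINB2) and none rose. Among all tested genes 0.0599% fell and 0.108% rose. SERPINB2, a plasminogen activator inhibitor, was at 19.1, 13.3 and 13.6 CPM in wild type and 8.10, 4.04 and 5.74 CPM in knockout libraries (-1.36, SE 0.23, adjusted p = 0.0436), and it did not pass without knockout replicate 2 (-1.15). Without that library 4 members fell, namely CXCL1, CXCL2, CXCL8 (-0.71, adjusted p = 0.0108) and CXCL6 (-0.59, adjusted p = 0.00523). Another 2 rose, among them the growth factor binding protein IGFBP5 (1.00, adjusted p = 0.0242). In that fit 0.343% of all tested genes fell and 0.674% rose. CXCL8, interleukin 8, was at 313, 241 and 232 CPM against 172, 169 and 149 CPM, without overlap. CXCL6 was at 37.6, 39.1 and 38.5 CPM against 26.9, 58.5 and 24.0 CPM, so that knockout replicate 2 alone was above the wild type values. IL6, a pro-inflammatory cytokine, was at 13.5, 14.7 and 12.3 CPM against 7.92, 8.90 and 6.50 CPM, also without overlap, and did not pass (-0.80, adjusted p = 0.147). The list's median was -0.11, and -0.22 without replicate 2. Of the 14 NF-kB feedback genes TNFAIP3 fell with all libraries and BIRC3, an inhibitor of apoptosis, also fell without replicate 2 (-0.43, adjusted p = 0.0253), with list medians of -0.20 and -0.24. Every knockout library was below every wild type library for 5 of the 14 (5.41% of all genes). RELA, the p65 subunit, was at 117, 123 and 134 CPM against 107, 72.8 and 120 CPM (-0.32).

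**Figure D3:**
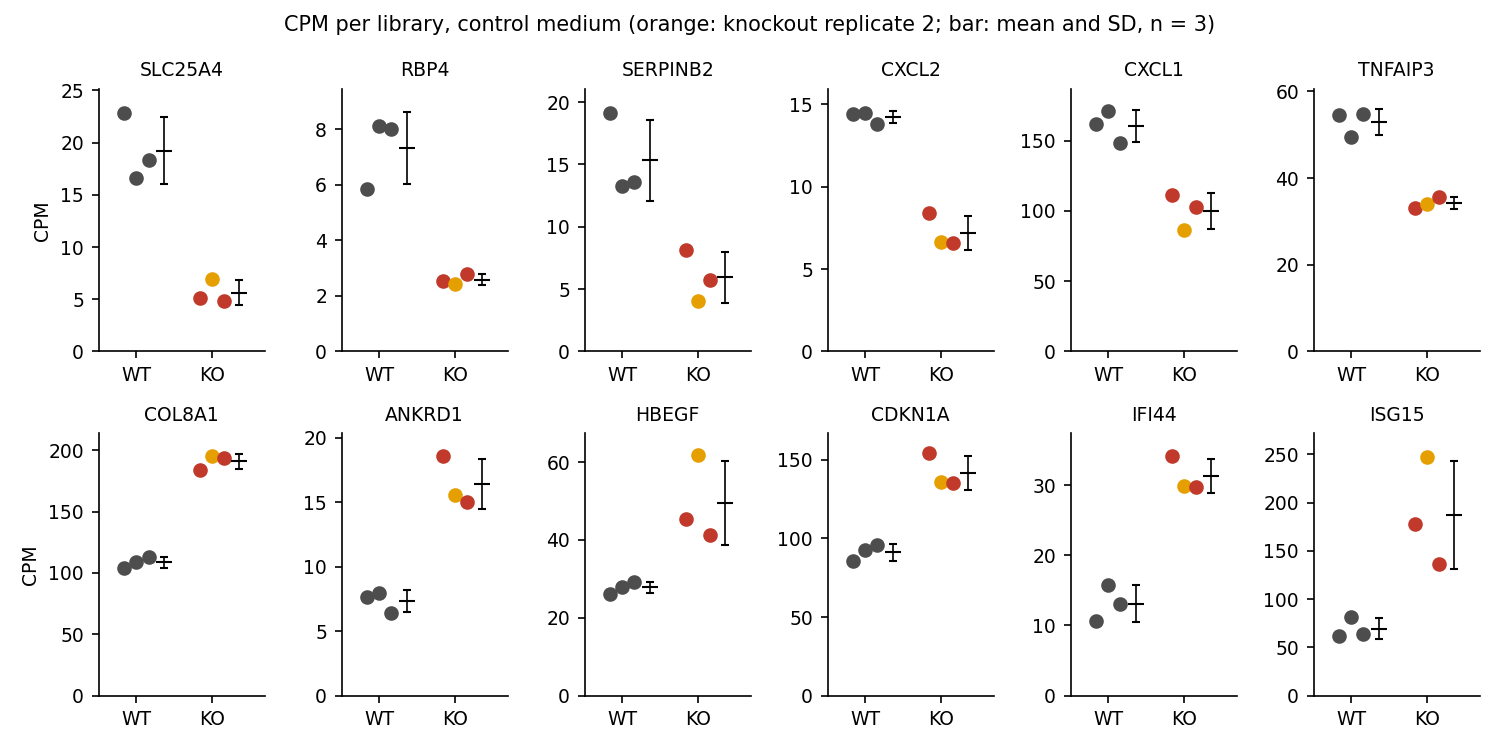
CPM (y axis, from 0) in the 3 wild type (WT) and 3 knockout (KO) control-medium libraries for 12 genes called with all libraries, one point per library, with mean and SD (n = 3) beside them. Knockout replicate 2, in orange, is the highest knockout value for SLC25A4, COL8A1, ISG15 and HBEGF and the lowest for RBP4, SERPINB2 and CXCL1. In no gene shown do the genotypes overlap.

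The gene with the smallest adjusted p among the rising ones encodes a collagen. COL8A1 (ENSG00000144810, chromosome 3, 99638475 to 99799226), the alpha chain of a short-chain collagen, was at 104, 109 and 113 CPM in wild type and 184, 195 and 194 CPM in knockout libraries (0.81, SE 0.09, adjusted p = 0.0111; 0.80 and adjusted p = 3.94e-05 without knockout replicate 2). The spread within each genotype was narrow (SD 4.91 and 6.28 CPM), and replicate 2 lay with the other knockout libraries. COL8A1 was the 1 of 19 tested collagens that passed with all libraries, where 0.108% of all tested genes passed upward. The collagen list's median was 0.51 with all libraries and 0.00 without knockout replicate 2, and in that library the collagens lay at a median of 0.75 above the mean of the other knockout libraries. COL1A1, the chain of type I collagen, was at 540, 1000.4 and 1199.7 CPM in wild type and at 556, 3474 and 707 CPM in knockout libraries (0.79, adjusted p = 0.605; -0.53 without). COL6A2, a type VI chain, passed downward only without replicate 2 (-0.44, adjusted p = 0.0395). SPARC, a collagen-binding matrix protein, passed upward without it (0.44, adjusted p = 0.0428), and MMP2, a gelatinase, passed downward (-0.56, adjusted p = 0.0146). MMP2 was at 211, 283 and 240 CPM against 161, 167 and 172 CPM, so that replicate 2 lay within its group there. Of 18 TGF-beta targets and 16 mesenchymal markers none passed with all libraries. Without replicate 2, 1 of the TGF-beta targets passed upward, and the integrin ITGB5 (0.39, adjusted p = 0.0263) and the laminin chain LAMB3 (0.29, adjusted p = 0.0457) were 2 of 20 integrins and laminins. That fit called 0.674% of all tested genes upward.

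Among growth and mechanical signalling genes, ANKRD1, a target of YAP and TAZ, was at 7.68, 7.95 and 6.38 CPM in wild type and 18.6, 15.6 and 15 CPM in knockout libraries (1.16, SE 0.15, adjusted p = 0.015; 1.19 without knockout replicate 2). Of the 13 YAP and TAZ targets 1 rose with all libraries and 2 without replicate 2, the added one being F3, tissue factor (0.42, adjusted p = 0.00309), with medians of 0.25 and 0.10. These 2 fits called 0.108% and 0.674% of all tested genes upward. CTGF and CYR61, the usual reporters of that pathway, did not pass (0.55, adjusted p = 0.371, and 0.08, adjusted p = 0.779). HBEGF, a ligand of the EGF receptor, was at 26.2, 28.0 and 29.2 CPM against 45.4, 61.8 and 41.3 CPM (0.83, SE 0.14, adjusted p = 0.0436), highest in replicate 2, and rose by 0.64 without it. It was the 1 of 10 EGF family genes that passed in either fit. FGF1, a fibroblast growth factor, rose by 1.15 without replicate 2 (adjusted p = 0.000575), where that library held 8.90 CPM against 17.9 and 13.8 CPM in the other knockout libraries and 6.38 to 7.67 CPM in wild type.

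The rest of the genes that passed with all libraries belonged to no list. NPTX1, a neuronal pentraxin, rose by 1.52 (SE 0.25, from 0.934 ± 0.162 to 2.69 ± 0.686 CPM, SD, n = 3), and SBK2, a kinase gene, by 1.56 (SE 0.26, from 0.797 ± 0.304 to 2.34 ± 0.415 CPM), both at low counts. AFAP1L2, an actin-associated adaptor, rose by 1.15 and THBD, the anticoagulant receptor thrombomodulin, by 0.93. THBD was at 14.6, 15.2 and 13.4 CPM in wild type and 23.2, 35.3 and 23.6 CPM in knockout libraries, highest in replicate 2. HHAT, which attaches palmitate to hedgehog proteins, rose by 0.76, the membrane ubiquitin ligase MARCH4 by 0.74, the caveolar protein CAVIN2 by 0.70 and the glycosyltransferase GALNT10 by 0.45. SGK1, a kinase downstream of PI3K, rose by 0.71 (adjusted p = 0.0478) and is named here after its values were seen. RPL13AP20, a processed pseudogene of a ribosomal protein gene, rose by 0.88, and its reads may belong to other copies. RBP4, the retinol carrier, was at 5.85, 8.13 and 8.0 CPM against 2.54, 2.43 and 2.79 CPM, a fall of 1.5 on the log2 scale. Its knockout values were below a wild type range that no knockout library approached. MSC, the transcription factor musculin, fell by 0.96, TMEM184B, a membrane protein, by 0.62 and KDELR1, a receptor that returns proteins to the endoplasmic reticulum, by 0.48. The adjusted p of these genes ran from 0.0141 to 0.0478, and each passed without replicate 2.

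On the mitochondrial lists no gene but SLC25A4 passed with all libraries. The 13 mitochondrially encoded proteins had a median of -0.62 with all libraries and -0.07 without knockout replicate 2, where they lay at a median of -3.58 relative to the other knockout libraries. MT-CO1, a subunit of cytochrome oxidase, was at 9723, 8969 and 8452 CPM in wild type and 10123, 805 and 9218 CPM in knockout libraries. The mitochondrial share of counts was 2.88% ± 2.20 in knockout and 4.15% ± 0.150 in wild type libraries (SD, n = 3, exact permutation p = 0.5), and 4.14% in knockout cells without replicate 2 (exact permutation p = 1.0). None of 77 nuclear genes of the respiratory chain and ATP synthase passed in either fit, with medians of -0.02 and 0.00. None of 17 mitophagy genes, 15 genes of mitochondrial protein quality control or 14 of biogenesis and dynamics passed either. None of 20 glycolysis genes passed, with medians of -0.14 and -0.19. TSPO, an outer membrane protein long linked to the permeability pore, was at 179, 139 and 156 CPM in wild type and 104, 158 and 104 CPM in knockout libraries. It fell by 0.60 without replicate 2 (adjusted p = 0.00165), which sat at the wild type level, and did not pass with it (-0.37, adjusted p = 0.47). CHCHD10, a protein of the intermembrane space, fell by 0.82 without replicate 2 (adjusted p = 0.0389), from 6.31, 7.36 and 6.92 CPM to 3.75 and 3.99 CPM, replicate 2 being at 5.91 CPM.

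Of the remaining lists, none had a member past the threshold with all libraries. These were hypoxia response (16 tested, median -0.05 with all libraries and -0.12 without knockout replicate 2), cholesterol synthesis (20, 0.01 and -0.02) and the integrated stress response (21, 0.15 and 0.06). NRF2 targets (19, -0.09 in both), heat shock proteins (12, 0.06 and -0.02), HLA class I and antigen processing (16, 0.07 in both) and acute-phase and airway defence genes (10, -0.41 and -0.25) were others. Numbers tested are those with all libraries. The same held for Notch (12, 0.02 and -0.18), Wnt (13, 0.27 and 0.17), immediate early genes (15, 0.01 and 0.1) and purinergic genes (14, 0.02 and 0.0). It held as well for lysosome (20, -0.06 in both), clustered protocadherins (29, -0.08 and -0.25), cytosolic ribosomal proteins (78, -0.11 and -0.03) and matrix proteases (16, 0.07 and 0.06). Without knockout replicate 2, DDIT4, an inhibitor of mTOR signalling on the hypoxia list, fell by 0.46 (adjusted p = 0.00686), and FTH1, the ferritin heavy chain, by 0.51 (adjusted p = 0.00502). FTH1 was at 768, 859 and 896 CPM in wild type and at 587, 124 and 591 CPM in knockout libraries, and the value of replicate 2 was the lowest of all. The secreted ligand WNT5B (0.40, adjusted p = 0.047) and the proteases MMP24 (0.55, adjusted p = 0.0309) and ADAMTS6 (0.44, adjusted p = 0.0185) rose there. DST, a cytolinker on the basal cell list, rose by 0.57 (adjusted p = 0.00542) without replicate 2.

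**Figure D4:**
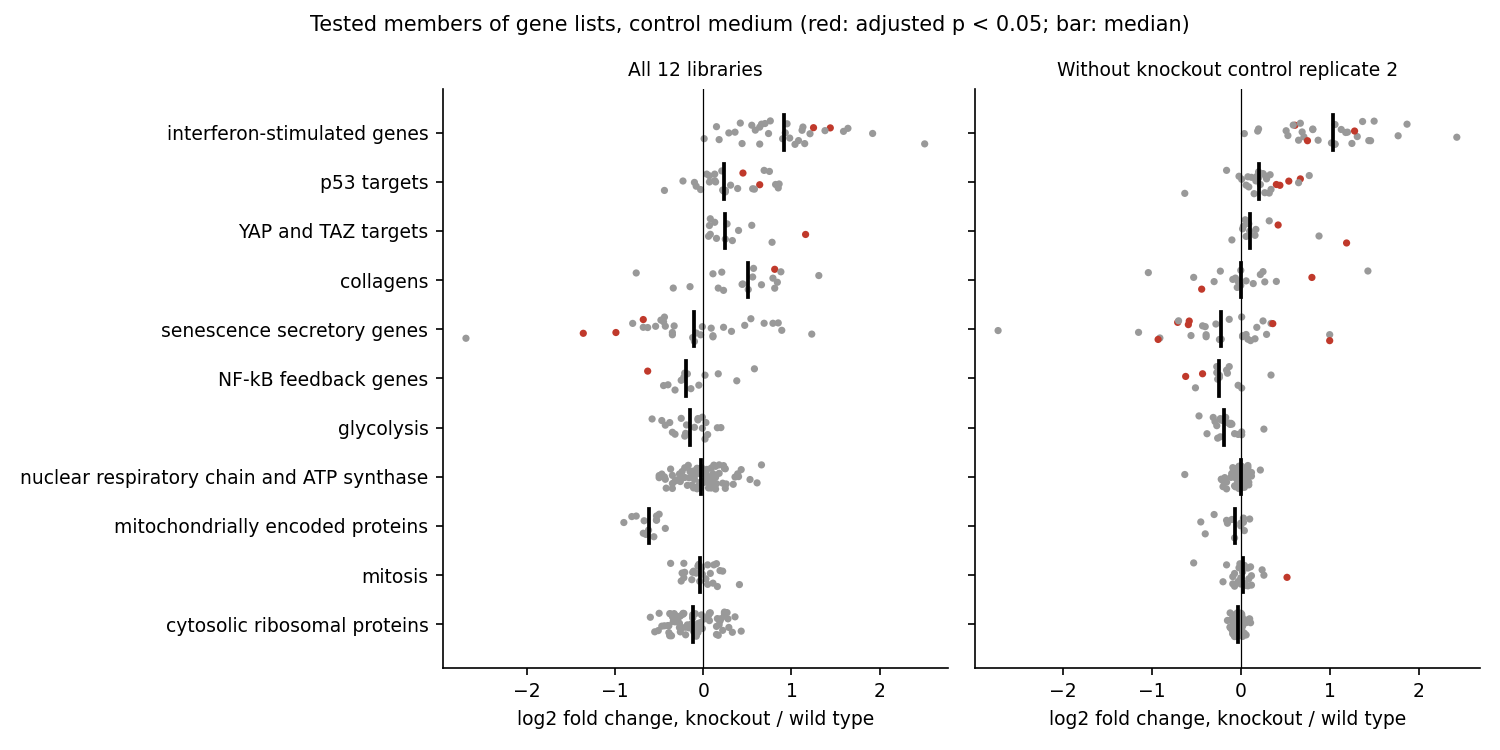
Log2 fold change, knockout over wild type, in control medium (x axis) for tested members of 11 gene lists (y axis), one point per gene, with all libraries on the left and without knockout control replicate 2 on the right. Red points passed an adjusted p of 0.05, and the bar is the list median, which for collagens moves from 0.51 to 0.00 and for mitochondrially encoded proteins from -0.62 to -0.07.

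Leaving out knockout replicate 2 added genes whose remaining knockout libraries were close together. REEP4, an endoplasmic reticulum protein that clears membrane from mitotic chromosomes, had the smallest adjusted p of that fit. It was at 69.8, 69.2 and 70.4 CPM in wild type, at 31.2 and 34.1 CPM in knockout replicates 1 and 3 and at 58.0 CPM in replicate 2 (-1.09, SE 0.08, adjusted p = 3.24e-07; -0.76 and adjusted p = 0.135 with it). INPP5D, the lipid phosphatase SHIP1, was at 0.865, 1.36 and 1.41 CPM in wild type and 4.95, 1.49 and 3.77 CPM in knockout libraries (1.84, SE 0.20, adjusted p = 8.17e-05 without replicate 2). Replicate 2 lay between the other knockout libraries and wild type for REEP4 and near the wild type level for INPP5D. PTPN22, a tyrosine phosphatase, rose by 1.72, RASGRF1, an exchange factor for Ras, by 1.5, and SERPINB5, the serpin maspin, by 1.18, each at under 4 CPM. In control medium PTPN22, RASGRF1 and SERPINB5 averaged 0.894, 0.747 and 1.92 CPM over the 5 libraries, below the 2 CPM at which the naming rule starts, and they met it through the bleomycin libraries (8.55 to 12, 4.36 to 6.09 and 78.1 to 113 CPM). ABCA13, a lipid transporter, had 2 counts over the wild type libraries and 16 over knockout replicates 1 and 3, a ratio of 13.9 per total count with a counting interval of 3.26 to 124. It too was tested and named through the bleomycin libraries, where it was at 22.3 to 40.8 CPM, as were NPTX1 and SBK2 named (7.34 to 11.7 and 3.15 to 4.76 CPM). Among falling genes were SAMD11 (-1.33) and NXPH4, a neurexophilin (-0.90). TAF13, a subunit of TFIID, was at 15.5, 21.1 and 19.0 CPM in wild type and 8.76, 32.5 and 9.18 CPM in knockout libraries. Its change was -1.05 without replicate 2 (adjusted p = 0.000187) and -0.15 with it (adjusted p = 0.893), as replicate 2 was above every wild type library. CTXN1, a small membrane protein, reversed: it was at 15.6, 16.3 and 21.5 CPM in wild type and 9.61, 74.8 and 11.1 CPM in knockout libraries, so its change was 0.84 with replicate 2 (adjusted p = 0.608) and -0.77 without it (adjusted p = 0.0161).

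The bleomycin libraries of the same genotypes were a separate set of libraries, though of the same knockout cells. Both media were tested in the same fit with a shared estimate of spread, so their calls are not independent. In bleomycin 8 genes passed with all libraries (0.0479%). In the fit without knockout control replicate 2, whose bleomycin libraries were the same 6, 294 passed (1.71%). COL8A1, SLC25A4 and MSC passed in both media with all libraries and moved the same way. The log2 fold change of COL8A1 was 0.81 in control medium and 1.02 in bleomycin, and that of MSC was -0.96 and -1.18. In the fit without replicate 2, 54 genes passed in both media, 30.9% of the control calls and 18.4% of the bleomycin calls, all with the same sign, 28 higher and 26 lower. Of the 175 control calls 146 had the same sign in bleomycin (83.4%), against 54.3% of all tested genes. The log2 fold changes of REEP4 were -1.09 in control medium and -1.03 in bleomycin, with TNFAIP3 at -0.62 and -0.50, CXCL8 at -0.71 and -0.56, and TSPO at -0.60 and -0.71. The interferon list had a median of 0.67 in bleomycin against 0.91 in control medium with all libraries, and none of its members passed in bleomycin in that fit. The list summed to 1290, 1240 and 1290 CPM in wild type and 1400, 2720 and 1860 CPM in knockout bleomycin libraries. IFI44 passed in both media without knockout control replicate 2 (1.28 and 0.84). The p53 list had a median of -0.13 in bleomycin, where 2 members passed downward and 0 upward without knockout control replicate 2. In that fit 10 of 32 senescence secretory genes passed downward in bleomycin and 1 upward (median -0.31). Of the 13 YAP and TAZ targets 5 passed upward there (median 0.26), against 1.71% of all tested genes in either direction. The log2 fold change of CDKN1A was 0.67 in control medium and -0.17 in bleomycin without replicate 2, and that difference passed the interaction test (-0.84, SE 0.12, adjusted p = 0.00774). With all libraries no gene passed the interaction test in edgeR (770 genes at an unadjusted p under 0.05), while DESeq2 called 4 and edgeR without replicate 2 called 9.

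**Figure D5:**
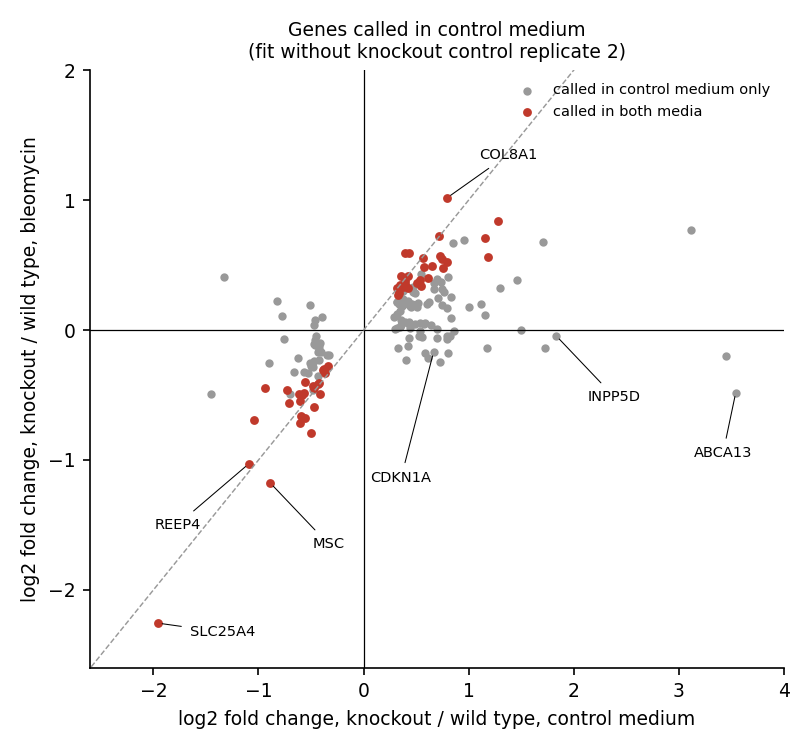
Log2 fold change, knockout over wild type, in bleomycin (y axis) against that in control medium (x axis) for the 175 genes called in control medium without knockout control replicate 2, with the dashed line at equal change. The 54 genes called in both media, in red, lie in the upper right and lower left, and CDKN1A and INPP5D lie to the right at -0.17 and -0.05 in bleomycin.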

How the data were processed

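Poly(A)-selected RNA of 12 libraries was sequenced. The authors deposited raw counts per gene and FPKM values (per kilobase and megafragment) for 58735 genes. The submitters' processing notes name HISAT2 2.0.5 for alignment and featureCounts 1.5.0-p3 for counting. The sources used here give neither the genome build nor the strand setting, so overlapping and antisense genes may share reads. Of the 177 genes called in either fit, 176 have the same coordinates in GENCODE release 29 (GRCh38).

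Counts were tested with edgeR 4.0.16 (R 4.3.3): filterByExpr, TMM scaling and a robust quasi-likelihood fit of 4 group means to all 12 libraries, so that the groups share an estimate of spread. The fit was repeated without knockout control replicate 2. P-values were adjusted over all tested genes (Benjamini-Hochberg), and genes under 0.05 are called. The SE is the size of the log2 change over the root of F. CPM uses TMM-scaled totals. Tests were checked on simulated data. Alternatives were DESeq2 1.42.0, limma 3.58.1 on log2(FPKM + 1) and on log2(FPKM + 0.1), other scalings and filters, a replicate block and each library left out. The floor for a count of 0 is 3 counts per library, and floors and intervals (95%) cover counting error only.

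The members and the 42 gene lists were chosen with earlier results of these data known. Genes named were the translocases, then protein-coding genes past the threshold with mean log2 CPM no lower than 1 and genotypes that did not overlap: the 12 rising and 12 falling with the largest change and 4 and 4 more by adjusted p. Another 6 and 6 came from the fit without replicate 2, 3 and 3 from genes that are not protein-coding, and up to 4 members per list. Others were chosen after their values were seen, among them list members that did not pass. Sequences and start sites are those of RefSeq. A few called genes are counted in their lists and not reported here by name.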

Additional observations from a re-analysis of the deposited data

Results flagged for a closer look

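In the fit without knockout control replicate 2, the genotype difference itself differed between control medium and bleomycin, by edgeR's interaction test, for 8 genes that were called in control medium. The values are log2 fold changes of knockout against wild type in bleomycin minus those in control medium. INPP5D had -1.88 (SE 0.22, adjusted p = 0.000664), CYFIP2, an actin regulator, -0.87 (adjusted p = 0.0276), and GALNT5, a glycosyltransferase, -0.87 (adjusted p = 0.0438). TLR4, the lipopolysaccharide receptor, had -0.86 (adjusted p = 0.0497), CDKN1A -0.84 (adjusted p = 0.00774) and CAVIN2 -0.84 (adjusted p = 0.0276). AKAP9, a scaffold of the Golgi and centrosome, had -0.76 (adjusted p = 0.00496) and THBD -0.76 (adjusted p = 0.0276). In control medium these genes were 0.59 to 1.84 higher in knockout cells, and in bleomycin they lay between -0.18 and -0.01. With all libraries none of the 8 passed the interaction test (adjusted p from 0.351 to 0.899).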

How the results depend on the processing

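The count of 28 genes in control medium moved with the libraries used and with the tool and filter. It ran from 0 to 175 as each control library was left out, and was 0 with only the 6 control-medium libraries (661 at an unadjusted p under 0.05). It was 209 with DESeq2, 321 with no filter on low counts, 14 with limma on log2(FPKM + 1), 14 on log2(FPKM + 0.1) and 926 with limma-voom and sample weights. Chosen after seeing the data, the 5 control-medium libraries left without knockout replicate 2 gave 117, and omitting wild type replicate 1 as well gave 465. The 8 genes of the bleomycin comparison became 88 with DESeq2, 81 with no filter, 28 and 4 with limma on the FPKM scales, 741 with sample weights, and 2 to 4 as each bleomycin library was left out. They became 294 without knockout control replicate 2. Why the counts moved was not tested. The log2 fold change of SLC25A4 was -1.786 with only 6 libraries (adjusted p = 0.406, past no threshold) and between -1.956 and -1.653 with 1 library left out. CTXN1 was 0.84 with all libraries, -0.7716 without knockout control replicate 2, up to 1.268 with another library left out and -0.7223 with sample weights. The share of mitochondrial counts differed by -1.265 percentage points, and by -2.038 to -0.0056 with 1 library left out. Interaction calls among the named genes were 0, with 2 by DESeq2 and 0 to 4 with 1 library left out. Same-numbered control libraries correlated at 0.149, 0.0226 and 0.001 in their deviations from the group means, and 0.149 was the highest value of any control pair. Knockout replicate 2 weighs on all knockout deviations, so these values cannot decide whether replicate numbers pair the libraries. A replicate block gave 11 genes in control medium, 9 of them among the 28, 4 in bleomycin and an SLC25A4 change of -1.779. Depth limits low genes such as ABCA13.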

Other observations

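Some genes outside the lists, named after their values were seen, passed in control medium without knockout replicate 2. CD274 and PDCD1LG2, the ligands of the PD-1 receptor, were 0.83 (adjusted p = 0.00147) and 0.70 (adjusted p = 0.00517) higher in knockout cells. CD274 was at 9.82, 9.40 and 11.1 CPM in wild type and at 18.2, 10.1 and 17.8 CPM in knockout libraries, with replicate 2 at the wild type level. KIT, a receptor tyrosine kinase, was 0.80 higher (adjusted p = 0.00256), at 11, 15.5 and 14.5 CPM against 24.1, 19.7 and 23.7 CPM, without overlap. HELZ2, a helicase, was 0.61 higher (adjusted p = 0.00256), and SAMD9L, an antiviral factor, 0.85 higher (adjusted p = 0.0219). GAS1, a hedgehog co-receptor, was at 177, 207 and 186 CPM in wild type and 116, 213 and 113 CPM in knockout libraries, a fall of 0.72 on the log2 scale without replicate 2 (adjusted p = 0.000187).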
